A study of Drosophila melanogaster with 6 samples.

Results

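The zona pellucida (ZP) genes of Drosophila melanogaster encode secreted or membrane-anchored proteins of the apical extracellular matrix, the layer that epithelial cells lay down on their outer or luminal face. Of the 10 genes listed, pio, dpy, qsm, dyl, neo, mey, nyo, tyn, zye and cyr, 9 had at least 1 probe set that the platform annotation gives to that gene alone. These 9 genes were measured by 11 probe sets out of 18769 in all, 3 for pio and 1 for each other gene. No probe set carried the symbol nyo, so nyo was not analysed here. Its neighbour mey, the adjacent protein-coding gene in the RefSeq gene table (assembly Release 6 plus ISO1 MT), was measured.

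ZP proteins share a domain through which they polymerise into filaments, and most are held at the cell surface by a membrane anchor until they are cleaved. In the embryo Pio and Dpy fill the lumen of the tracheal tubes, and Dpy also joins epidermal tendon cells to the cuticle. Dyl, Neo, Mey, Nyo, Tyn, Zye and Cyr occupy separate zones of the apical surface of the epidermal cells that form denticles, the small hooks of the larval skin, and shape those cells under the transcription factor Ovo (Shavenbaby).

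Total RNA came from 3 collections of rib1/ribP7 embryos, which carry 2 different mutant alleles of ribbon (rib), a BTB-domain nuclear factor needed to form tracheal and salivary tubes, and from 3 collections of wild-type embryos, the Oregon R strain according to the design text. Both genotypes were collected for 8 h, aged for 11 h, isolated with an embryo sorter and described as stages 11 to 16. Each array therefore averaged whole embryos of mixed ages, and the design text calls the collections independent. The sources used here describe neither allele further, so the level of the rib transcript is no check of the genotype. The question addressed is which transcripts have another level in the mutants.

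All values are log2 expression per probe set from Affymetrix Drosophila Genome 2.0 arrays, and differences are rib1/ribP7 minus wild type. Array medians lay between 5.51 and 5.55 log2 units in the mutants and between 5.52 and 5.56 in wild type, and precision is limited by having 3 arrays a genotype. Array-to-array differences within a genotype had an SD of 0.209 to 0.222 in the mutants and 0.402 to 0.629 in wild type. Hybridization controls averaged 10.13 to 10.28 in the mutant arrays and 10.38 to 10.78 in the wild-type arrays. The 3' minus 5' signal of the GAPDH control was 1.60 to 1.70 in the mutants, against 1.72, 1.37 and 1.20 in wild-type replicates 1, 2 and 3. For the actin control it was 1.67, 1.51 and 1.49 in the mutants, against 1.93, 1.51 and 1.59 in wild type. Wild-type replicate 3 was thus the lowest wild-type array for GAPDH but not for actin. The rib probe set itself read 13.87, 13.93 and 13.78 in the mutants, against 13.21, 13.28 and 12.69 in wild type. That is 1.75-fold higher in the mutants (log2 difference 0.80, limma adjusted p = 0.0390).

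In the fit without a replicate block, 1 ZP gene passed the test, and it was higher in the mutants. The brightest probe set of pio (1638681_at) rose, and no ZP probe set fell. Of all probe sets, 8.87% were called at a limma adjusted p under 0.05 (Benjamini-Hochberg over all 18769), 5.54% higher and 3.32% lower, so 1 of 11 is near the background share. The median difference was 0.16 log2 units over the 11 ZP probe sets and −0.07 over all probe sets. The mutant and wild-type arrays did not overlap at 4 of the 11 probe sets, against 35.3% of all probe sets.

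**Figure D1:**
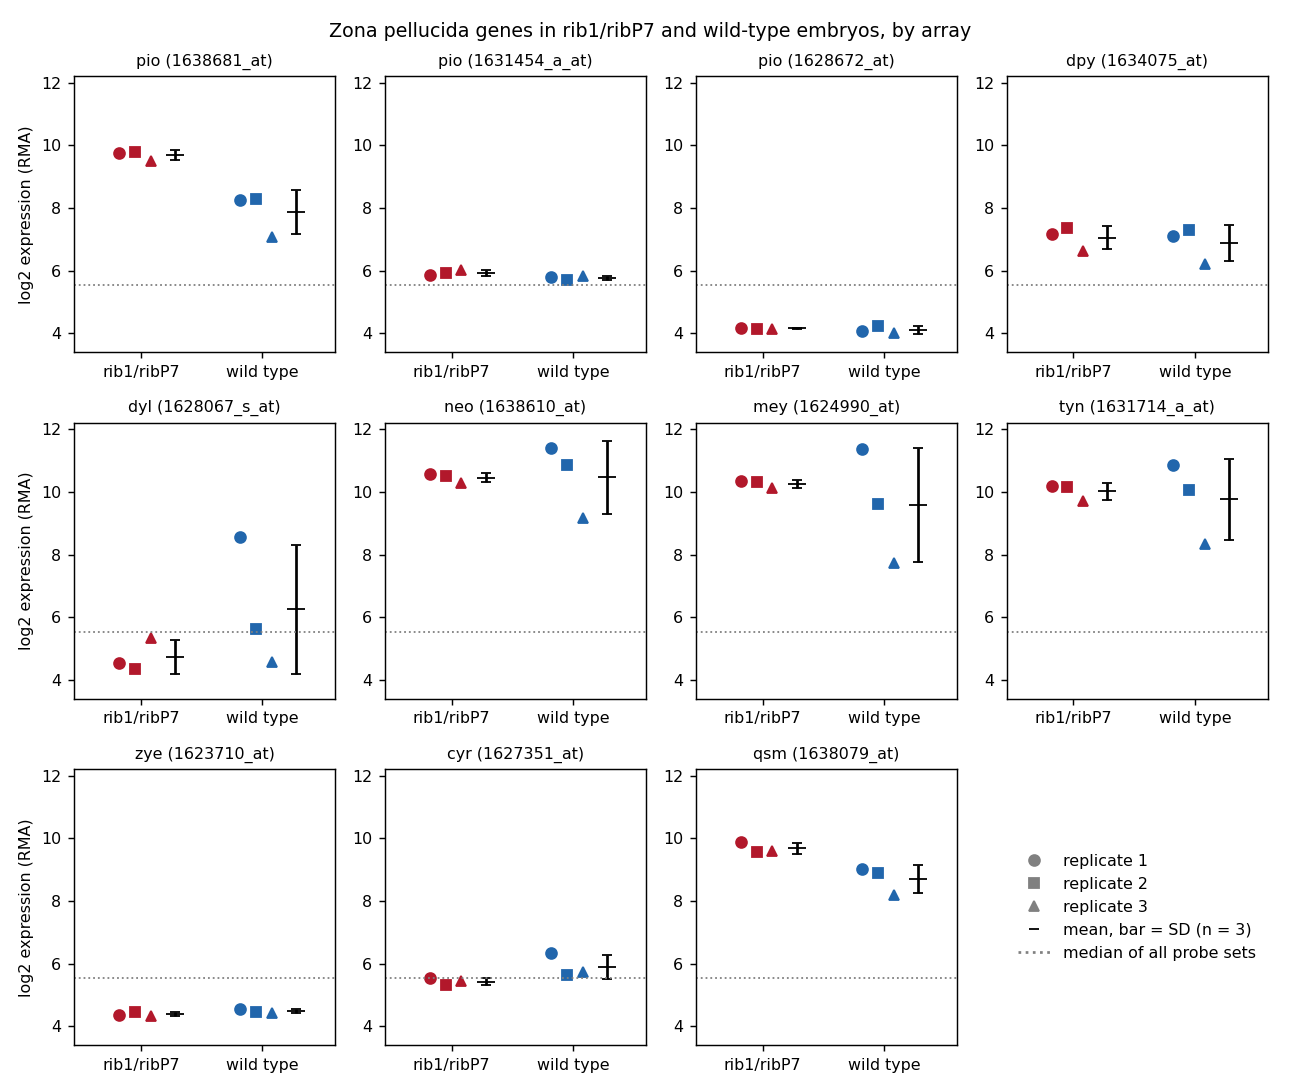
Log2 expression of each of the 11 ZP probe sets (1 panel each) on the 3 rib1/ribP7 arrays (red) and the 3 wild-type arrays (blue), with marker shape giving the replicate number, the black bar the mean and SD, and the dotted line the median of all probe sets. At pio 1638681_at every mutant array lies above every wild-type array, while at neo, mey and tyn the 3 mutant arrays sit inside the spread of the wild-type arrays.

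Among the luminal proteins, pio encodes a ZP protein secreted into the tracheal lumen, where it is needed for branch cells to intercalate without the tubes breaking apart. At 1638681_at pio read 9.75, 9.79 and 9.50 log2 units in rib1/ribP7 replicates 1, 2 and 3, against 8.26, 8.29 and 7.07 in wild-type replicates 1, 2 and 3. All 3 mutant arrays were above all 3 wild-type arrays, and wild-type replicate 3 stood lowest. The means were 9.68 ± 0.15 in the mutants and 7.88 ± 0.70 in wild type (SD, n = 3 each), which is 3.50-fold higher in the mutants (log2 difference 1.81, SE 0.34, limma adjusted p = 0.0276). The difference was 1.40 without wild-type replicate 3, where the limma adjusted p was 0.00346. It was 1.77, 1.75 and 1.89 without mutant replicates 1, 2 and 3, where the limma adjusted p was 0.112, 0.118 and 0.0900 and the call was lost.

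The other pio probe sets read close to the array median or below it. 1631454_a_at read 5.85, 5.93 and 6.03 in the mutants, against 5.81, 5.70 and 5.82 in wild type. These groups also did not overlap, but the difference was 0.16 (95% interval −0.05 to 0.37, limma adjusted p = 0.291). 1628672_at read 4.19, 4.15 and 4.14 in the mutants, against 4.08, 4.25 and 4.02 in wild type, and the groups overlapped. Its difference was 0.04 (95% interval −0.16 to 0.25, limma adjusted p = 0.763), and only 3.05% of all probe sets were dimmer on average. The interval of neither set reaches the change seen at 1638681_at. The files used here do not place the probes on the transcripts of pio.

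dpy encodes a giant matrix protein with a ZP domain that spans the tracheal lumen and anchors the epidermis to the cuticle. Its probe set (1634075_at) read 7.16, 7.37 and 6.64 in rib1/ribP7 replicates 1, 2 and 3, against 7.10, 7.31 and 6.23 in wild-type replicates 1, 2 and 3. Replicate 2 was the highest and replicate 3 the lowest in both genotypes, and the groups overlapped. The difference was 0.17 (95% interval −0.62 to 0.97, limma adjusted p = 0.752). The dpy difference became −0.15 without wild-type replicate 3. Between arrays of the same replicate number the mutant was higher by 0.06, 0.05 and 0.41. With the replicate number as a block the 95% interval of the dpy difference narrowed to −0.11 to 0.46 (limma adjusted p = 0.341), so no difference was called in either fit.

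qsm encodes a membrane-anchored ZP protein best known from the light response of the adult circadian clock. It read 9.87, 9.57 and 9.60 in rib1/ribP7 replicates 1, 2 and 3, against 9.02, 8.90 and 8.18 in wild-type replicates 1, 2 and 3. Every mutant array was above every wild-type array. The means were 9.68 ± 0.17 in the mutants and 8.70 ± 0.45 in wild type (SD, n = 3 each), a difference of 0.98 (SE 0.23), 1.98-fold. The limma adjusted p was 0.0543, just short of the threshold. With the replicate number as a block the limma adjusted p was 0.0268, so the count of called ZP probe sets was then 2, both higher in the mutants, in a fit that called 14.6% of all probe sets. The qsm difference was 0.73 without wild-type replicate 3 and 1.14 without wild-type replicate 1, and in both fits it passed limma's test (adjusted p = 0.0275 and 0.0228). It did not pass without wild-type replicate 2 (limma adjusted p = 0.0986) or without mutant replicates 1, 2 and 3 (limma adjusted p = 0.187, 0.156 and 0.153).

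The submitters' own rule, a change of 1.5-fold or more with p below 0.05 before adjustment, selected pio 1638681_at and qsm under limma and no other ZP probe set. That is 2 of 11, where the rule selected 13.0% of all probe sets. Without wild-type replicate 3 the rule selected 4 ZP probe sets, with dyl and neo added, both lower in the mutants, and 11.7% of all probe sets. Without wild-type replicate 1 mey was added instead, higher in the mutants, with 17.5% of all probe sets past the rule. Without wild-type replicate 2 cyr was added, lower in the mutants, with 13.2% of all.

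**Figure D2:**
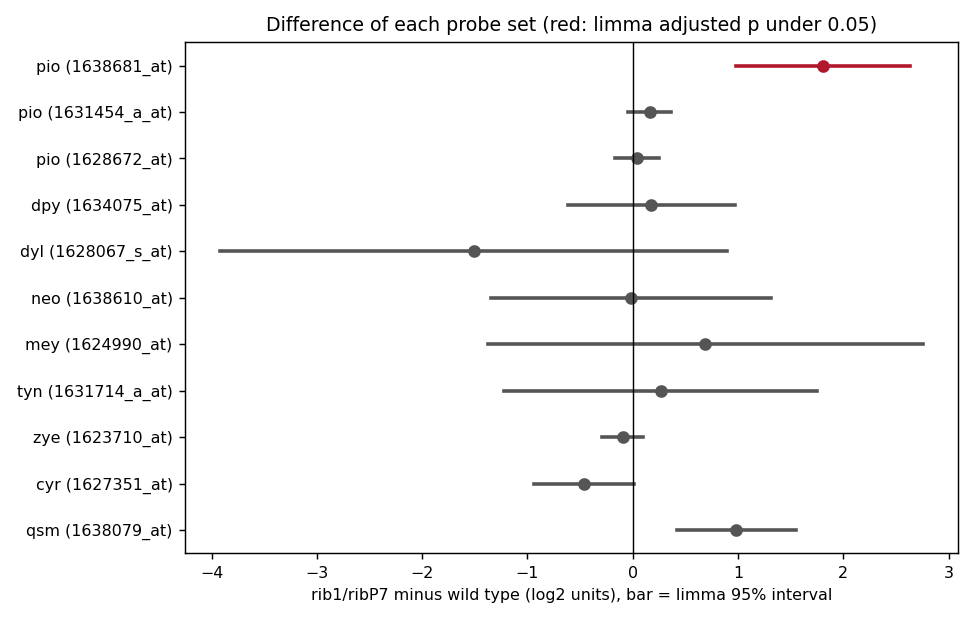
Difference of each ZP probe set, rib1/ribP7 minus wild type in log2 units (x axis), with limma's moderated 95% interval. Only pio 1638681_at (red, 1.81) passes limma's adjusted test; qsm (0.98) has an interval above 0 but an adjusted p of 0.0543, and the intervals of dyl, mey, tyn and neo are the widest.

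Among the denticle proteins, neo, mey and tyn read well above the array median on every array and none passed the test. neo (1638610_at) read 10.56, 10.50 and 10.30 in rib1/ribP7 replicates 1, 2 and 3, against 11.40, 10.84 and 9.16 in wild-type replicates 1, 2 and 3. The mutant arrays lay together inside the wild-type range, below wild-type replicates 1 and 2 and above wild-type replicate 3. The difference of the means was −0.02 (95% interval −1.35 to 1.32, limma adjusted p = 0.986).

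mey (1624990_at) read 10.35, 10.31 and 10.11 in rib1/ribP7 replicates 1, 2 and 3, against 11.37, 9.61 and 7.73 in wild-type replicates 1, 2 and 3. Wild-type replicate 1 was the highest of the 6 arrays and wild-type replicate 3 the lowest, with a wild-type range of 3.64 log2 units and a mutant range of 0.24. Only 0.149% of all probe sets had a wider wild-type range than mey. The mey difference was 0.69 (95% interval −1.38 to 2.75, limma adjusted p = 0.627), but 1.59 without wild-type replicate 1 and −0.23 without wild-type replicate 3.

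tyn (1631714_a_at) followed the same order of arrays as neo within wild type. It read 10.19, 10.17 and 9.71 in rib1/ribP7 replicates 1, 2 and 3, against 10.86, 10.06 and 8.35 in wild-type replicates 1, 2 and 3. All mutant arrays again lay inside the wild-type range, and the difference was 0.26 (95% interval −1.23 to 1.75, limma adjusted p = 0.799). The tyn difference was 0.82 without wild-type replicate 1 and −0.44 without wild-type replicate 3. In all, the 3 mutant arrays lay inside the wild-type range at 4 of the 11 ZP probe sets, neo, mey, tyn and pio 1628672_at, against 21.4% of all probe sets.

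dyl encodes a ZP protein needed for the chitin layer of bristles and hairs, and its signal was high on 1 array. Its probe set (1628067_s_at) read 4.54, 4.34 and 5.35 in rib1/ribP7 replicates 1, 2 and 3, against 8.55, 5.61 and 4.59 in wild-type replicates 1, 2 and 3. Wild-type replicate 1 stood 2.94 log2 units above the next highest array, and wild-type replicate 3 lay within the mutant values. The means were 4.74 ± 0.54 in the mutants and 6.25 ± 2.06 in wild type (SD, n = 3 each), a difference of −1.51 (95% interval −3.92 to 0.90, limma adjusted p = 0.375). Without wild-type replicate 1 the dyl difference was −0.36, and without wild-type replicate 3 it was −2.34. The suffix of this probe set marks probes shared by several transcripts, and the annotation used here lists dyl alone.

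cyr and zye stayed near or below the array median. cyr (1627351_at) read 5.54, 5.31 and 5.45 in the mutants, against 6.33, 5.64 and 5.73 in wild type. All 3 mutant arrays were below all 3 wild-type arrays, with wild-type replicate 1 the highest. The cyr difference was −0.46 (95% interval −0.94 to 0.01, limma adjusted p = 0.204), and −0.25 without wild-type replicate 1. Between arrays of the same replicate number it was −0.79, −0.32 and −0.28. With the replicate number as a block the 95% interval was −0.81 to −0.12 (limma adjusted p = 0.0856), so cyr was called in neither fit. zye (1623710_at) read 4.38, 4.45 and 4.33 in the mutants, against 4.56, 4.48 and 4.42 in wild type, a range in which much of the signal can be background. Its groups overlapped and the difference was −0.10 (95% interval −0.29 to 0.09, limma adjusted p = 0.466). RMA compresses changes at such levels, so a difference in zye or cyr may be understated.

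The ZP genes varied more between wild-type collections than between mutant ones. The median range over 3 arrays was 0.26 log2 units in the mutants and 1.09 in wild type for the 11 ZP probe sets. For all probe sets it was 0.17 in the mutants and 0.32 in wild type. Of the 11, 8 had a mean above the median of all values, against 50.4% of all probe sets, and ranges were not compared at matched signal. The SD was larger in wild type at 10 of the 11, the exception being pio 1631454_a_at, and at 80.8% of all probe sets. A mutant range over 1 log2 unit was seen at dyl alone among the 11 (0.639% of all probe sets), and a wild-type range over 1 at 6 of them (10.8% of all). Wild-type replicate 3 was the lowest wild-type array at 9 of the 11 probe sets, all but cyr and pio 1631454_a_at, against 24.5% of all probe sets. Wild-type replicate 1 was the highest wild-type array at 7 of the 11, against 25.6% of all. Several probe sets shared these arrays, so the counts describe 3 collections and are not independent.

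**Figure D3:**
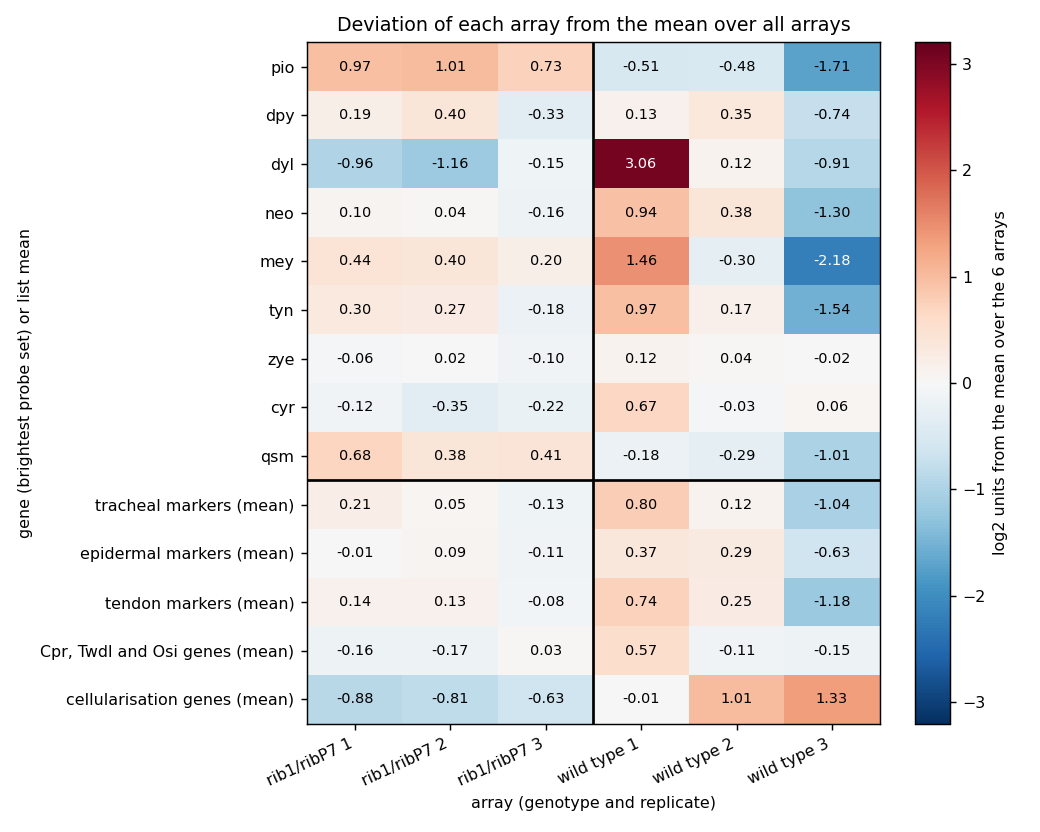
Deviation of each array from the mean over the 6 arrays, in log2 units, for the brightest probe set of each ZP gene (above the line) and for the mean of marker lists (below the line). Wild-type replicate 3 is low for mey (−2.18), pio (−1.71), tyn (−1.54) and neo (−1.30) and for the tracheal (−1.04) and tendon (−1.18) markers, wild-type replicate 1 is high for dyl (3.06), and the cellularisation genes run the other way in wild type, at 1.33 in replicate 3 and −0.01 in replicate 1.

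Marker lists of the tissues that make these proteins also differed between the arrays. In bulk RNA of whole embryos, fewer cells of a type and less RNA per cell cannot be told apart. The mean of 5 measured tracheal markers (btl, vvl, verm, serp and Gasp) was 8.97, 8.81 and 8.63 in the mutant arrays, against 9.56, 8.87 and 7.71 in wild-type replicates 1, 2 and 3. No tracheal marker passed limma's adjusted test or had an unadjusted p under 0.05, and the summed linear signal ran from 2414 to 3030 in the mutants and from 1179 to 5869 in wild type.

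The 3 tendon cell markers (sr, Tsp and slow) averaged 8.03, 8.02 and 7.81 in the mutants, against 8.63, 8.14 and 6.71 in wild type, with sums of 907 to 1080 in the mutants and 421 to 1381 in wild type. None of the tendon markers was called by limma or had an unadjusted p under 0.05. The 5 epidermal markers (grh, ovo, Ddc, ple and kkv) averaged 7.88, 7.98 and 7.78 in the mutants, against 8.26, 8.17 and 7.26 in wild type, with sums of 2404 to 3161 in the mutants and 1656 to 4487 in wild type. None of these was called by limma or had an unadjusted p under 0.05. Ddc and ple, enzymes of cuticle tanning, averaged below the array median. In each of these lists wild-type replicate 3 was the lowest of the 6 arrays and wild-type replicate 1 the highest. The same held for neo, mey and tyn, and for the muscle, haemocyte and salivary gland lists given below. This order of list means was thus also seen in lists of other tissues. In the haemocyte and salivary gland lists wild-type replicate 1 led mutant replicate 1 only narrowly, at 7.227 against 7.225 and 8.50 against 8.45. The neuronal list was also lowest in wild-type replicate 3 but highest in the mutant arrays. By contrast, pio and qsm were highest in the mutant arrays, and cyr was not low in wild-type replicate 3. Single markers also departed from their list, with btl averaging 7.55 in the mutants and 7.06 in wild type, and with Ddc and ple nearly flat. Among haemocyte and salivary gland markers, Pxn, eyg and PH4alphaSG2 kept the order of their list. Hml was lowest in wild-type replicate 1 (5.02), and crq and fkh averaged higher in the mutants (8.44 and 8.85) than in wild type (8.02 and 8.37). The part of tissue makeup in the spread of the ZP genes was not tested.

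Genes of early and late embryos also differed between the arrays. Of 5 cellularisation genes, which are transcribed long before stage 11, halo, bnk and Sry-alpha fell and none rose. Their mean was 5.89, 5.96 and 6.14 in the mutants, against 6.77, 7.78 and 8.11 in wild-type replicates 1, 2 and 3, so wild-type replicate 3 was the highest. The differences were −3.31 for halo and −1.36 for bnk (limma adjusted p = 0.00390 and 0.0367), and Sry-alpha averaged 7.15 in the mutants and 8.15 in wild type (limma adjusted p = 0.0415). For 112 measured cuticle genes with the stems Cpr, Twdl or Osi, the mean was 5.29, 5.28 and 5.48 in the mutants, against 6.03, 5.34 and 5.30 in wild type. Wild-type replicate 1 stood highest there, as it did for dyl. Of those 112, 8 rose and none fell by limma's adjusted test, with a median of −0.12, and the 4 with the smallest p were Cpr49Ag (2.81), TwdlO (1.83), Cpr47Eb (2.08) and Cpr50Cb (1.02). The part of embryo age in the ZP values was not tested.

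The other marker lists gave the following levels. Of 4 neuronal markers nSyb rose by 1.16 (limma adjusted p = 0.0214), and the list averaged 7.39 to 7.72 in the mutants and 6.64 to 7.08 in wild type. None of 2 muscle, 5 haemocyte or 4 salivary gland markers was called by limma, and 2 had an unadjusted p under 0.05, both haemocyte genes, NimC1 (−0.31, limma adjusted p = 0.0515) and crq (0.42, limma adjusted p = 0.105). The muscle markers Mlc2 and up averaged 9.00 to 9.09 in the mutants, against 9.59, 7.47 and 5.94 in wild-type replicates 1, 2 and 3. The haemocyte list averaged 7.03 to 7.22 in the mutants, against 7.23, 7.14 and 6.98 in wild-type replicates 1, 2 and 3. The salivary gland list averaged 8.22 to 8.45 in the mutants and 7.55 to 8.50 in wild type. The part of these lists in the ZP differences was not tested.

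Other genes of the apical matrix showed few calls. The further ZP genes dy and nompA were measured, and neither passed. dy, a wing ZP gene, read 7.04, 7.11 and 6.76 in the mutants, against 7.73, 6.71 and 5.24 in wild type, with the same order of wild-type arrays as neo, mey and tyn. nompA, which links sensory neurons to the cuticle, differed by 0.79 (limma adjusted p = 0.278), with −0.12 at its other probe set. Of 9 genes that make, modify or bind luminal chitin none was called by limma or had an unadjusted p under 0.05, and the median difference was 0.17 against −0.07 over all probe sets. obst-A, a chitin-binding protein gene with the smallest p of them, differed by −0.90 (limma adjusted p = 0.303). Of these 9, verm, serp and Gasp were also counted as tracheal markers and kkv as an epidermal one.

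Of 7 denticle genes, which include ovo and its partner SoxN, only sn rose, by 0.65 (limma adjusted p = 0.0330). It encodes fascin, which bundles actin filaments. ovo read 10.12, 10.19 and 9.72 in the mutants, against 10.12, 10.49 and 9.27 in wild type, a difference of 0.05 with limma adjusted p = 0.929. None of the 3 measured proteases that act on matrix proteins passed limma's adjusted test or had an unadjusted p under 0.05. Among these Np, whose protease cleaves Pio in the trachea, read 6.34, 6.17 and 5.97 in the mutants, against 6.32, 6.07 and 5.77 in wild type, a difference of 0.11 (limma adjusted p = 0.699). Sb differed by 0.40 (limma adjusted p = 0.488). Of 7 tendon and integrin attachment genes none was called by limma, and 2 had an unadjusted p under 0.05, shot (1.10, limma adjusted p = 0.105) and if (0.84, limma adjusted p = 0.165). Both encode parts of the link between the cytoskeleton and the matrix, a spectraplakin and an integrin subunit. The tendon markers sr, Tsp and slow were also among these 7 genes.

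The likeness of ZP genes to one another was described by the root mean square difference of their profiles, each centred on its mean over the 6 arrays. Over the 36 pairs of the 9 genes it ran from 0.183 to 1.96 log2 units with a median of 0.798. The closest pair was neo and tyn (0.183), both denticle genes, but neo and mey lay at 0.562 and dyl and neo at 1.1. Genes outside the ZP list were nearer still, mspo (0.0960) to neo and vkg (0.111) to tyn. Next nearest were frac (0.106) to neo and dy (0.123), itself a ZP gene, to tyn. The tracheal marker serp was also nearer, at 0.125 from neo and 0.129 from tyn. mey and tyn lay at 0.418 and pio and qsm at 0.452, and pio and dyl were the farthest apart. zye and cyr lay at 0.277, both near or below the array median, and zye varied by only 0.23 over the 6 arrays against 1.02 for cyr.

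By the same measure the named probe sets nearest to pio 1638681_at were CG42404 (0.0835), tinc (0.0951), which encodes a membrane protein, and gol (0.119), which encodes a RING-finger protein, where the median over all named probe sets was 1.04. tinc read 8.41, 8.56 and 8.08 in the mutants, against 6.95, 7.17 and 5.84 in wild type. Nearest to mey were vri (0.199), up (0.246) and dsx-c73A (0.284), against a median of 1.15. vri encodes a leucine zipper transcription factor and up a troponin of muscle. Nearest to dyl were CG31997 (0.196), CG9411 (0.202) and CG4115 (0.212), against a median of 1.47. Each of these was highest in wild-type replicate 1, which follows from their choice by likeness to dyl. With 6 arrays these likenesses describe the collections and carry no test.

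**Figure D4:**
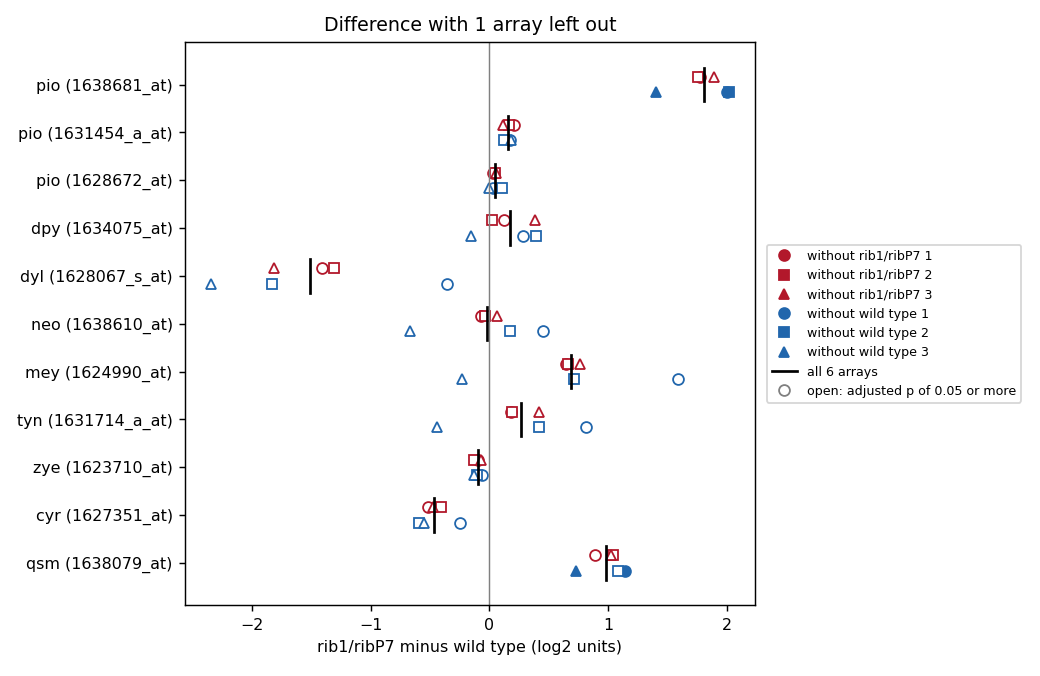
Difference of each ZP probe set, rib1/ribP7 minus wild type in log2 units, with 1 array left out (red markers, a mutant array; blue markers, a wild-type array; shape gives the replicate), beside the value with all arrays (black line). pio 1638681_at stays between 1.40 and 2.01 and qsm between 0.73 and 1.14, while mey runs from −0.23 to 1.59 and dyl from −2.34 to −0.36 depending on the wild-type array left out; filled markers have a limma adjusted p under 0.05.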

How the data were processed

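The authors deposited log2 expression values for each probe set, 1 array per sample, normalized by RMA using Partek (no version given), per the design text and the submitters' processing notes. RMA makes arrays alike in distribution, so a shift of most transcripts one way would be removed. Groups and replicate numbers came from the sample titles. Gene symbols came from the platform annotation, checked by identifier against the RefSeq gene table of Release 6 plus ISO1 MT (no name changed). The table held 18952 probe sets; 183 controls were left out, leaving 18769.

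Genotypes were compared by a two-sided moderated test in limma 3.58.1 (R 4.3.3; lmFit, then eBayes), adjusted by Benjamini-Hochberg over all probe sets tested, at a threshold of 0.05 and without a replicate block, and the pipeline was tested on simulated data. The simulated arrays had the same SD in both genotypes and no replicate pairing, so that check does not cover unequal spread or pairing. SEs and intervals are limma's. With 3 arrays a genotype the smallest two-sided p of an exact permutation test is 0.1, so none was run. The ZP genes and the 14 other gene lists were chosen with earlier results of these data known. Every ZP probe set is named; from other lists the called genes (at most 4), or the one with the smallest p, and for likeness the 3 nearest probe sets of pio, mey and dyl. Further genes, such as ovo, Np, dy, crq and those near to neo and tyn, were named after their values were seen. Listed genes without a probe set of their own are not analysed here. Lists used the brightest probe set of a gene.

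Deviations from the group means correlated across probe sets at 0.371, 0.570 and 0.391 for arrays with the same replicate number. Other pairs lay between −0.326 and −0.143. The deviations within a genotype cancel out, so positive values at the same number tend to force negative ones elsewhere, which are no separate evidence. The replicate number was used as a block in an alternative fit only. What a number stands for is not given in the sources used here. The fit was repeated with the replicate number as block, with another variance prior (trended and robust), with weights for arrays or for genotypes, without moderation, after centring on medians, after cyclic loess, after scaling to the 18 hybridization controls, without the dimmest 40%, on gene-level values and with each array left out. No sequence was used.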

Additional observations from a re-analysis of the deposited data

How the results depend on the processing

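Over the 11 ZP probe sets and all alternatives, 137 of 163 values kept their direction and their side of limma's threshold. The pio rise at 1638681_at (1.81) was not called by the plain test without moderation (adjusted p = 0.123) or without any 1 mutant array, and its difference with 1 array left out ran from 1.40 to 2.01. qsm passed limma with the replicate block, the trended and robust prior, 1 variance per group and without the dimmest 40% (0.98 in each), with array weights (0.83) and with hybridization control scaling (1.36), but not with the plain test (adjusted p = 0.164), median centring (0.0565) or cyclic loess (0.0613). With 1 array left out qsm ran from 0.73 to 1.14 and passed in 2 of 6 fits (limma adjusted p 0.0228 to 0.187). Hybridization control scaling moved the median of all probe sets from −0.07 to 0.31 and called pio 1631454_a_at (0.54), while neo was 0.36 and zye 0.28 there, both with the sign turned. Array weights gave −0.051 for pio 1628672_at, −0.21 for dpy and −0.026 for tyn, and median centring 0.0072 for neo, also with turned signs. With 1 array left out, signs turned within these ranges: pio 1628672_at −0.0039 to 0.11, dpy −0.15 to 0.39, neo −0.67 to 0.45, mey −0.23 to 1.59 and tyn −0.44 to 0.82. The block changed no other ZP call.

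The count of higher ZP probe sets was 1, but 2 with the block, the trended and robust prior, either kind of array weights and without the dimmest 40%, 3 with hybridization control scaling, 0 with the plain test, and 0 to 2 with 1 array left out (0 without any 1 mutant array, 2 without wild-type replicate 1 or 3). No alternative called a lower one. The submitters' rule took in 2 to 4 with 1 array left out, where it selected 10.7% to 17.5% of all probe sets. Calls over all probe sets were 1664, against 2745 with the replicate block, 4371 with array weights, 594 with the plain test, 3202 with hybridization control scaling (2917 higher and 285 lower, against 1040 and 624), and 603 to 3674 with 1 array left out. The causes were not tested. Signal near the array median limits what zye, cyr and the dimmer pio probe sets can show.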
